A study of Mus musculus with 6 samples.

Results

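Il4ra, Il10ra, Il10rb, Il17ra, Il17rc, Il17re, Il27ra, Ifngr1 and Ifngr2 encode receptor chains for the cytokines IL-4, IL-10, IL-17 and IL-27 and, with the last pair, for interferon gamma. Open chromatin at these 9 mouse genes was followed in CD4 T cells through the peaks that an ATAC-seq study deposited. Peaks from the naive, 48 h and 72 h lists were joined into regions wherever they overlapped by 1 bp or more, and the regions that overlapped the RefSeq GRCm38.p6 body of a member with 20 kb on each side were taken. This gave 76 distinct regions of 81315 in all. Of these, 65 were in the naive list, 34 in the 48 h list and 43 in the 72 h list, against 51917, 37425 and 51941 regions in the whole lists. The windows of Il17rc and Il17re, which are neighbours, had 5 regions in common, and no other windows shared any. The farthest region kept lay 19845 bp from Il10rb and the nearest one left out lay 20192 bp from Il27ra, and both were in the naive list only.

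A cytokine receptor chain decides which outside signals a T cell can read. The IL-4 and interferon gamma receptors signal through JAK kinases and STAT proteins and steer helper cells toward the Th2 and Th1 fates, and both cytokines are known to restrain Th17 differentiation. IL-10 and IL-27 receptors also use JAK and STAT proteins and are known for limiting inflammation. The IL-17 receptors work differently, through adaptor proteins that activate NF-kappaB, and are best known on epithelial and stromal cells that respond to Th17 cells.

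The cells came from C57BL/6 mice, and the series names them wildtype. Naive CD4+ T cells were left untreated, and Th17 cells were grown from naive cells for 48 h or 72 h with 0.25 µg/mL antibody to CD3ε, 1 µg/mL antibody to CD28, 0.1 ng/mL TGF-β and 20 ng/mL IL-6. The cultured cells therefore differ from naive cells by the antibodies, the cytokines and the time in culture together, and these cannot be told apart. The design has 2 libraries per condition, but 1 peak list per condition was analysed, so no difference has a replicate check and no test between conditions could be made. The labels do not state the age of the mice.

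A region is called gained when a peak of the later condition lies in it and none of the earlier condition does, and lost in the opposite case. A missing peak means that nothing passed the authors' calling there, not that the chromatin was closed, and in a bulk sample fewer cells with an open site and less opening per cell cannot be told apart. The lists differ in size, with 53259 naive, 40624 48 h and 53926 72 h peaks. The markers of CD4 T cells all had regions (7 of 7 genes), and Il17a and Il17f, which mark Th17 cells, had 0 and 0 regions in naive cells, 5 and 2 at 48 h and 8 and 5 at 72 h. Of the markers of other cells, Ms4a1 (B cells), Lyz2 (myeloid cells) and Ncr1 (NK cells) had 0 regions in each list, and 4 of the 5 genes of each of these lists and 4 of 4 epithelial genes had regions. Summed over a list there were 15, 13 and 15 regions (naive, 48 h, 72 h) for B cells, 15, 8 and 9 for myeloid cells, 19, 12 and 14 for CD8 and NK cells and 12, 9 and 7 for epithelial cells. The part of other cell types in the results below was not tested.

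At most of the receptor genes an end of the body, though not always the start, lay under a peak in all 3 lists. An end of the gene body lay inside a peak of each list at 7 of the 9 genes, where 37.5% of all protein-coding genes did so. The exceptions were Il10ra, with an end covered in the naive and 72 h lists and not at 48 h, and Il17re, with neither end covered in any list, as at 53.2% of protein-coding genes. Both percentages are of all 21900 protein-coding genes, including those without a region in such a window. A gene without a region cannot have a covered end, and all 9 members had regions, so the comparison is uneven. RefSeq promoter sequences were at hand for 5 of the 9 genes, so that for these the transcription start was known. The starts of Il4ra, Ifngr1 and Ifngr2 lay inside a peak in all 3 lists, and those of Il17rc and Il17re in none. Over all listed promoters, 29.7% of starts were in a peak of all 3 lists and 61.7% in none. At Il17rc the covered end was the other one, in a region that also lies over the start of the neighbour Creld1.

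The 250 bases before each of these 5 starts are shown, 5′ to 3′ on the gene's own strand (plus for all 5, GRCm38.p6, from RefSeq), and their CpG content is described below. Capitals mark CpG dinucleotides, the sites of DNA methylation in mammals.
Il4ra (chr7:125552021-125552270): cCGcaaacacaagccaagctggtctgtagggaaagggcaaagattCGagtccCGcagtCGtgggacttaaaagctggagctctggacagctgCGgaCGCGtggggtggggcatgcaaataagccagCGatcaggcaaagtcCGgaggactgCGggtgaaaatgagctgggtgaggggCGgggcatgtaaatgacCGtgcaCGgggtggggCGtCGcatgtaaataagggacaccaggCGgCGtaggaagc
Ifngr1 (chr10:19591699-19591948): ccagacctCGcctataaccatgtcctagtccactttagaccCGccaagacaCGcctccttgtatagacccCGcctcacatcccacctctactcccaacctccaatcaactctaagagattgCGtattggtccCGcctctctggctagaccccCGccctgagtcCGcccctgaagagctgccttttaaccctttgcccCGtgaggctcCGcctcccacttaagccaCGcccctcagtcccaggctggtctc
Ifngr2 (chr16:91546809-91547058): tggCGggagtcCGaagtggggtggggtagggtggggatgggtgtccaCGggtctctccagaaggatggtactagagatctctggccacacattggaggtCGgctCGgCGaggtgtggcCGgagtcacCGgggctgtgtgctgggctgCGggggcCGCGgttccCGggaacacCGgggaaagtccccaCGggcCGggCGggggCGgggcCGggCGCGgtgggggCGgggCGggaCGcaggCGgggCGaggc
Il17rc (chr6:113471205-113471454): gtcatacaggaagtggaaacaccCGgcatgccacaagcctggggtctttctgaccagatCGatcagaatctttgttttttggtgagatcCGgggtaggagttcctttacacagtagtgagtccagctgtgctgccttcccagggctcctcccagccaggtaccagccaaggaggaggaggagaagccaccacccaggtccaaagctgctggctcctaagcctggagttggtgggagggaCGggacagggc
Il17re (chr6:113458521-113458770): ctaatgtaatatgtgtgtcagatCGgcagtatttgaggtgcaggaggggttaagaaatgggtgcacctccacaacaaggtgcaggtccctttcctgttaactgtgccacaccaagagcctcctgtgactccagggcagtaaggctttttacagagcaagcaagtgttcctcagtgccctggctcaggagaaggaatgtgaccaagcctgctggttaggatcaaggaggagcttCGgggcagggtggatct

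The stretch before Ifngr2 held 25 CpGs, more than in 89.3% of the 32851 listed promoters, and 74.0% of its bases were G or C. Il4ra held 17 CpGs and Ifngr1 held 11, while Il17rc held 4 and Il17re held 2, and the median over all promoters was 6. The 3 starts inside peaks thus had more CpGs than the 2 outside peaks, which is a description of 5 promoters. Exact matches to 9 motifs were sought on both strands. Ifngr2 held a match to the STAT6 pattern (TTC, any 4 bases, GAA), TTCCCGGGAA, from 91 to 82 bases before the start, and the overlapping matches GGGAAAGTCC and GGAAAGTCCC to the kappaB pattern (GGGA, any 4 bases, CC) from 76 to 66 bases before it. These letters lay inside the peaks of all 3 lists. The STAT6 pattern is found in 5.85% of all promoters of this length and the kappaB pattern in 17.6%. Il17rc also held a kappaB match, GGCTCCTCCC, 108 to 99 bases before its start. No other match was found in the 5 stretches to these patterns or to STAT (TTCNNNGAA), AP-1 (TGANTCA), ROR (AGGTCA), RUNX (TGTGGT), IRF (GAAA, any 2 bases, GAAA), TCF/LEF (CTTTGAT) or ETS (CCGGAAGT), which 7.02%, 6.75%, 14.0%, 14.0%, 2.98%, 3.21% and 2.88% of all promoters hold, in that order.

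**Figure D1:**
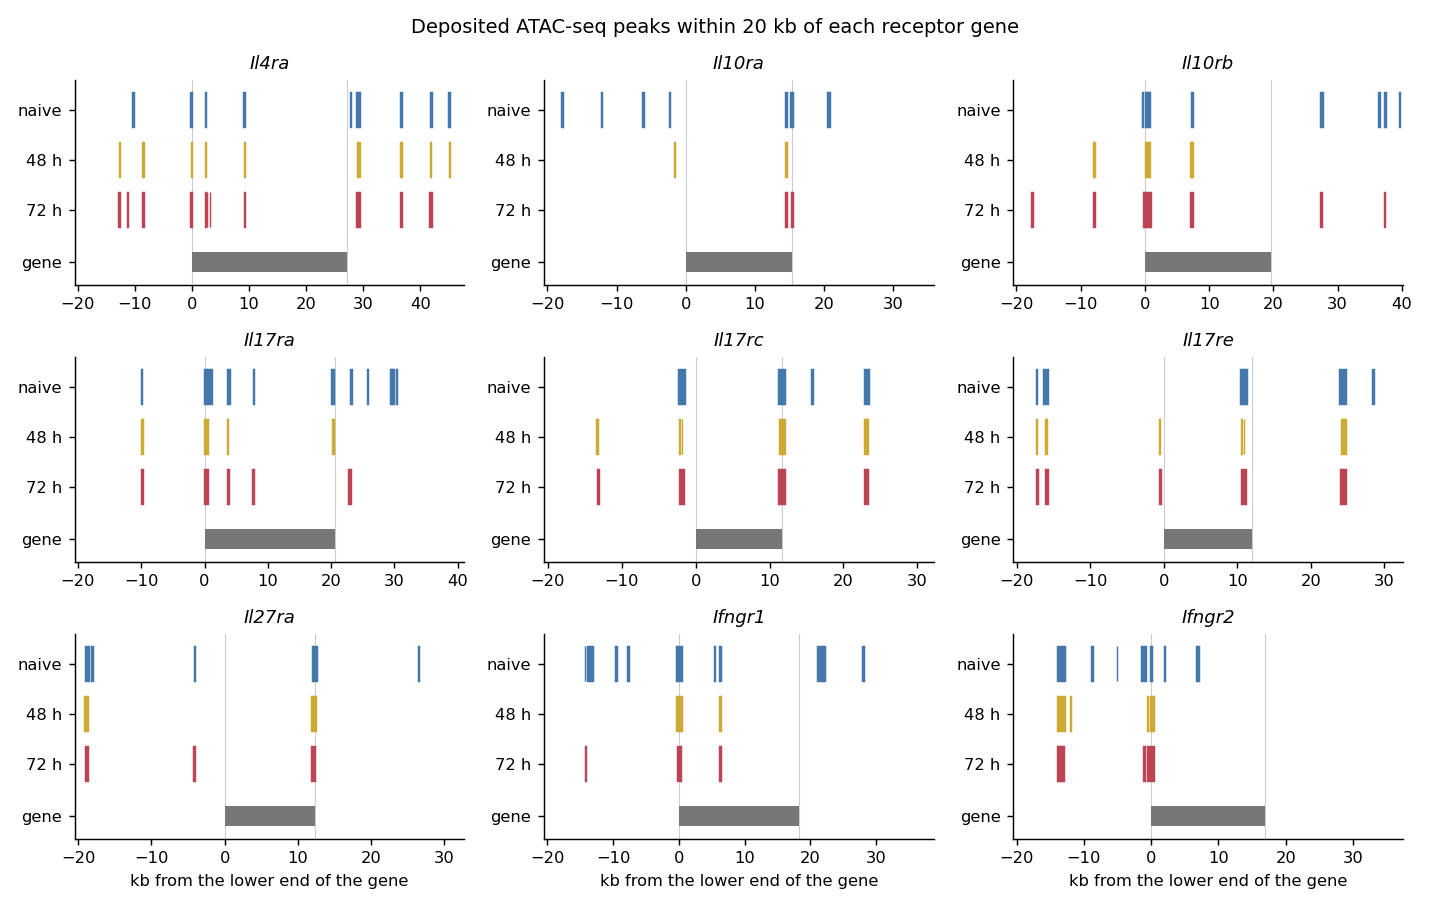
Peaks of the naive (blue), 48 h (yellow) and 72 h (red) lists around the 9 receptor genes, by distance in kb from the lower-coordinate end of the gene body (grey bar). Ifngr1 has 10 naive regions of which 2 are kept at 48 h and 3 at 72 h, while Il4ra has 9, 9 and 11 regions in the 3 lists.

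Over all 76 regions, the receptor loci lost naive regions about as often as the genome did and had a smaller share of gained regions, a difference that was not tested. At 48 h, 38 of the 65 naive regions were lost (58.5%, exact 95% binomial interval 45.6 to 70.6%, which here and below covers counting error only), against 55.9% over all regions. Only 7 of the 34 regions at 48 h were gained (20.6%, 8.70 to 37.9%), against 38.8% over all regions. Among all regions within 20 kb of a protein-coding gene these shares were 53.0% lost and 35.5% gained. At 72 h, 31 of 65 naive regions were lost (47.7%, 35.1 to 60.5%), against 49.2% over all regions, and 9 of 43 regions were gained (20.9%, 10 to 36.0%), against 49.2% over all regions. Near all genes, 45.9% were gained and 46.5% lost at 72 h. For gained regions at 72 h both shares lay above the members' interval, while at 48 h the share near all genes lay inside it. When single peaks were compared, and counted as shared only if at least 50% of a peak was covered by a peak of the other list, the gained share at 72 h was 33.3% at the receptors, against 52.2% over the genome. Both comparisons use the same naive list. Between the culture times, 13 of 43 regions at 72 h were absent at 48 h (30.2%, 17.2 to 46.1%), against 39.4% over all regions and 37.6% near genes, and 4 of 34 regions at 48 h were absent at 72 h (11.8%, 3.30 to 27.5%), against 15.9% and 15.2%.

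**Figure D2:**
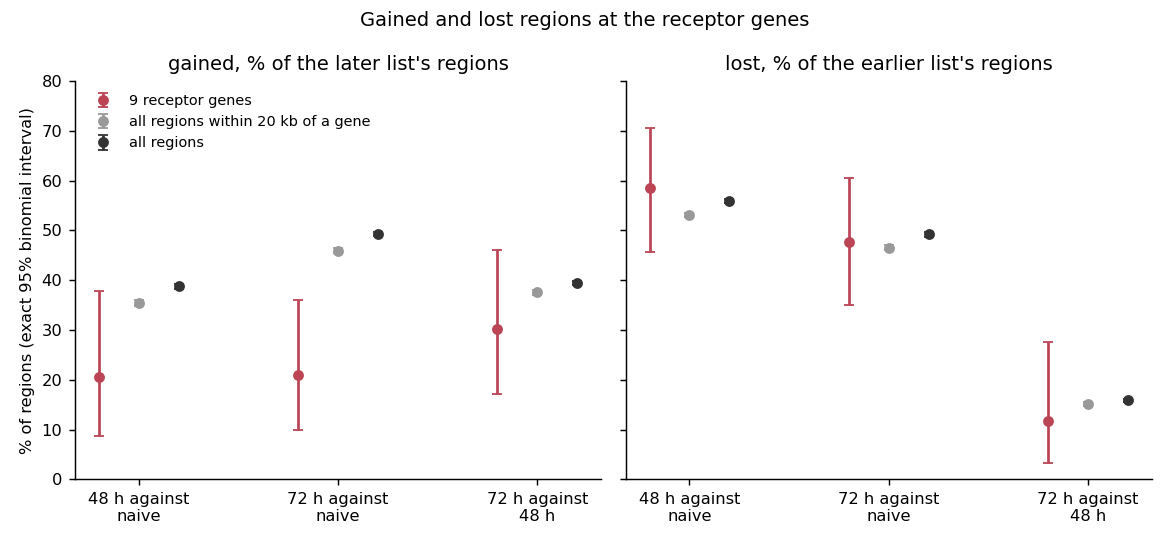
Share of regions gained (left, percent of the later list) and lost (right, percent of the earlier list) at the 9 receptor genes (red), within 20 kb of any protein-coding gene (grey) and over all regions (black), with exact 95% binomial intervals. At 72 h against naive the receptor genes gained 20.9%, against 49.2% over all regions, and lost 47.7%, against 49.2%.

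Most losses lay outside the receptor genes themselves. In the flanks, 26 of 42 naive regions were lost at 72 h (61.9%, 45.6 to 76.4%), while 5 of the 23 naive regions that touched a member's body were lost (21.7%, 7.46 to 43.7%). Over the genome the shares were 55.6% for regions within 20 kb and outside any gene body and 43.9% for regions touching a body. At 48 h the members lost 32 of 42 in the flanks (76.2%, 60.5 to 87.9%) and 6 of 23 in the bodies (26.1%, 10.2 to 48.4%), against 62.8% and 50.2% over the genome. Gained regions also lay mainly in the flanks, with 7 of 23 at 72 h (30.4%) and 7 of 17 at 48 h (41.2%), against 53.2% and 43.9% over the genome outside gene bodies. In the bodies there were 2 of 20 gained at 72 h and 0 of 17 at 48 h, against 43.9% and 33.3% over the genome, where 0 of 17 has an exact 95% interval of 0 to 19.5%. Of the 51 flank regions of the members, 14 touched the body of another protein-coding gene, among them 4 in Tmem121b beside Il17ra, 3 in BC049352 beside Il10ra and 2 in Ifnar2 beside Il10rb. Without these 14, 18 of 30 naive flank regions were lost at 72 h (60.0%, 40.6 to 77.3%) and 23 of 30 at 48 h (76.7%, 57.7 to 90.1%). The gained flank regions were then 5 of 17 at 72 h (29.4%, 10.3 to 56.0%), below the genome's 53.2%, which lies inside that interval. At 48 h they were 6 of 13 (46.2%, 19.2 to 74.9%), close to the genome's 43.9%. The 29 naive-only regions had a median width of 218 bp and the 25 regions of all 3 lists one of 410 bp in the naive list, against 193 and 521 bp over the genome.

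**Figure D3:**
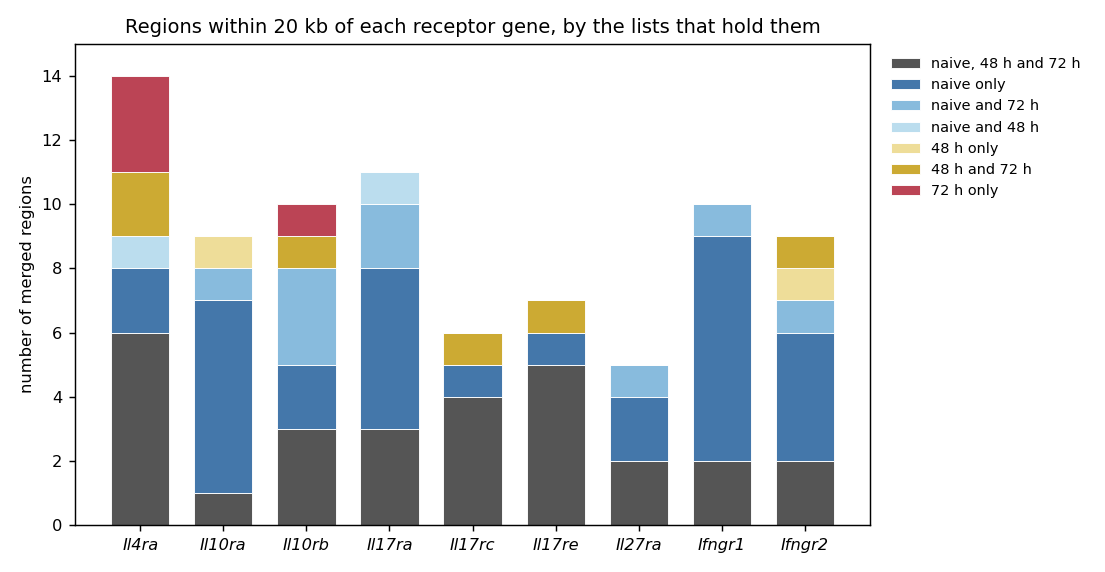
Number of merged regions within 20 kb of each receptor gene, stacked by which lists hold them. Naive-only regions (blue) make up 7 of 10 at Ifngr1 and 6 of 9 at Il10ra, and regions held by cultured cells alone (yellow and red) make up 5 of 14 at Il4ra.

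Il4ra, whose product binds IL-4 and, with another chain, IL-13, was the only member with more gained than lost regions at 72 h. It lies on chromosome 7 from 125552271 to 125579474 and had 9 regions in naive cells, 9 at 48 h and 11 at 72 h. At 72 h it had 5 gained and 3 lost regions, and at 48 h it had 2 of each. Of all 17276 genes with a region in the same kind of window, 18.5% had a balance of gained minus lost regions as high or higher at 72 h. With flanks of 50 kb Il4ra had 6 gained and 8 lost regions, and with low-scoring peaks left out 3 of each, so its direction depends on these choices.

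The gains at Il4ra lay before the gene and in its first part. A region from 125539324 to 125539690, 12581 bp before the gene, was 237 bp wide at 48 h and 355 bp at 72 h. Its score, the authors' own value per peak and used here only within a list, was 206 at 72 h, above 87.9% of the 72 h peaks, and 46 at 48 h, above 23.7% of the 48 h peaks. A region from 125543503 to 125543899, 8372 bp before the gene, had scores of 171 at 72 h (above 82.4%) and 114 at 48 h (above 75.0%). The 72 h list alone held another, from 125540879 to 125541101, scored 69. Between them a naive-only region ran from 125541864 to 125542124, so the upstream side held different regions in cultured and naive cells. The remaining 72 h-only regions, inside the gene, were 100 bp wide with low scores of 38 and 42, which for 42 is above 16.3% of the 72 h peaks.

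The start region of Il4ra, from 125551981 to 125552375, was 395 bp wide in naive cells, 242 bp at 48 h and 335 bp at 72 h, with scores of 46 at 48 h (above 23.7%) and 184 at 72 h (above 84.7%). The highest 72 h score of the locus, 263, was that of a region 9222 bp beyond the gene, from 125588696 to 125589116, which was in all 3 lists. It was above 94.2% of the 72 h peaks and no protein-coding body overlapped it.

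Il10ra, the ligand-binding chain of the IL-10 receptor, lost nearly all its naive regions. It lies on chromosome 9 from 45253837 to 45269149 and had 8 regions in naive cells, 2 at 48 h and 2 at 72 h. At 48 h, 7 were lost and 1 gained, and at 72 h, 6 were lost and none gained. Among the 635 genes with as many naive regions, 14.2% lost at least as many at 72 h and 7.40% at 48 h. The 6 naive-only regions were 100 to 268 bp wide, all lay in the flanks, and 3 of them lay inside the neighbour BC049352. Within the gene body itself nothing was lost or gained at 72 h. The region over its higher end, from 45268825 to 45269282, was 458 bp wide in naive cells, absent at 48 h and 206 bp wide at 72 h with a score of 78, above 50.9% of the 72 h peaks. The region just inside that end, from 45268150 to 45268470, was in all 3 lists, with low scores of 39 at 48 h (above 12.7%) and 43 at 72 h (above 17.3%).

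Il10rb encodes the other IL-10 receptor chain, which is also part of the receptors for IL-22 and interferon lambda. It lies on chromosome 16 from 91406157 to 91425834, next to the interferon receptor gene Ifnar2, and had 8 regions in naive cells, 4 at 48 h and 8 at 72 h. At 48 h, 5 were lost and 1 gained, while at 72 h 2 were lost and 2 gained. Such losses are common: of 635 genes with as many naive regions, 44.9% lost at least as many at 48 h and 89.1% at 72 h. Of the regions lost at 48 h, 3 were found again at 72 h with scores of 42 to 64, all below the median 72 h score of 76. The gained region with the higher score lay inside Ifnar2, 7732 bp from the lower end of Il10rb, from 91398039 to 91398425, with scores of 253 at 72 h (above 93.3%) and 138 at 48 h (above 82.6%). It was the highest 72 h score of the locus and was absent from naive cells. The region over the lower end of the gene, from 91406068 to 91406647, was in all 3 lists, 484 bp wide in naive cells, 462 bp at 48 h and 580 bp at 72 h.

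Regions that were missing at 48 h and back at 72 h were not limited to Il10rb. They numbered 9 over the members, at Il10ra, Il10rb, Il17ra, Il27ra, Ifngr1 and Ifngr2, with 72 h scores from 42 to 134 and a median of 60. These were 11.8% of the 76 member regions (5.56 to 21.3%), against 6.86% over all regions and 6.92% within 20 kb of a protein-coding gene. Of the member regions shared by naive cells and 72 h with a 72 h score below 76, 7 of 13 had no 48 h peak (53.8%), where 48.6% of such regions did over the genome. At or above that score it was 2 of 21 (9.52%), against 6.30% over the genome. The 48 h list is the shortest, and the part of its smaller size in these gaps was not tested.

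**Figure D4:**
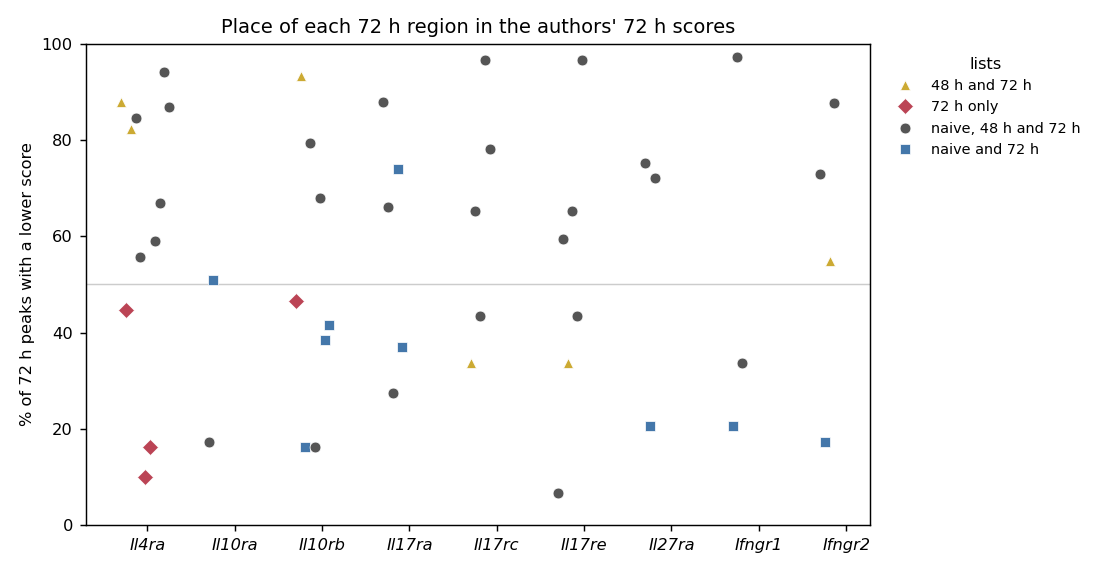
Share of all 72 h peaks with a lower score than each 72 h region of the receptor genes, by gene, with the lists that hold the region as symbol. Of the regions absent from naive cells, those at 48 h and 72 h reach 93.3% at Il10rb and 87.9% at Il4ra, and all 4 regions at 72 h only lie below 50%.

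Il17ra, the chain shared by the receptors for IL-17A, IL-17F and IL-17C, lost regions and gained none. It lies on chromosome 6 from 120463181 to 120483731 and had 11 regions in naive cells, 4 at 48 h and 5 at 72 h. At 48 h, 7 were lost and 0 gained, and at 72 h, 6 were lost and 0 gained. Such numbers are common for a gene with that many naive regions: of 244 genes with 11, 52.9% lost at least as many at 48 h and 55.7% at 72 h. Of the 5 naive-only regions, 4 lay inside the neighbour Tmem121b. When narrow peaks, those under the list's median width, were left out, Il17ra had 2 gained and 2 lost regions at 72 h.

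At Il17ra the region over the lower-coordinate end, from 120463081 to 120463847, was in all 3 lists, 668 bp wide in naive cells, 715 bp at 48 h and 691 bp at 72 h. A naive-only region of 207 bp lay just inside that end, from 120464087 to 120464293. A region 9678 bp outside it, from 120453079 to 120453503, had the highest 72 h score of the locus, 206 (above 87.9%), and was 100 bp wide in naive cells, 231 bp at 48 h and 425 bp at 72 h. It is thus counted as shared although its naive peak was of the smallest width in the list. A region inside the gene, from 120470714 to 120471002, was missing at 48 h and had a score of 134 at 72 h, above 74.0% of the peaks. At the higher end, the region from 120483193 to 120483661 was 469 bp wide in naive cells and 302 bp at 48 h, and was absent at 72 h.

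Il17rc encodes the partner of the IL-17RA chain in the receptor for IL-17A and IL-17F, and Il17re the partner that gives a receptor for IL-17C. They lie side by side on chromosome 6, Il17re from 113458699 to 113470758 and Il17rc from 113471455 to 113483163, and their numbers of regions were the most even of the members. Il17rc had 5 regions in each of the 3 lists and Il17re had 6 in each, with 1 gained and 1 lost at both times. Of the 4 constant regions in the Il17rc window, 1 covered the start of Creld1, 1 lay inside Prrt3 and 2 inside Il17re. Of those 2, 1 also covered the listed start of Gm52872. In the Il17re window the constant regions included 1 over the start of Jagn1.

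The Il17rc and Il17re starts themselves, whose sequences are shown above, had no peak. The gained region of the pair, from 113458035 to 113458329, lay 370 bp from the Il17re body, on the side of its start. It was 170 bp wide at 48 h and 254 bp at 72 h, with scores of 104 at 48 h (above 71.0%) and 56 at 72 h (above 33.7%). Inside Il17re, near its higher end, the regions from 113469093 to 113469413 and from 113469510 to 113470003 were in all 3 lists, with 72 h scores of 107 and 67. The region from 113469510 to 113470003 is the one over the Gm52872 start. The highest score of the pair, 303 at 72 h (above 96.7%), was at the Creld1 start, where the region from 113482568 to 113483562 also covers the higher end of Il17rc.

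Il27ra encodes the chain that binds IL-27 together with gp130. It lies on chromosome 8 from 84030286 to 84042600 and had 5 regions in naive cells, 2 at 48 h and 3 at 72 h, with 3 lost at 48 h, 2 lost at 72 h and 0 gained at both times. Over all genes with a region, 49.9% gained none at 48 h and 31.7% none at 72 h. Of 1773 genes with as many naive regions as Il27ra, 40.6% lost at least as many at 48 h and 61.8% at 72 h. The region over its higher end, from 84042165 to 84042878, was in all 3 lists, 626 bp wide in naive cells, 451 bp at 48 h and 484 bp at 72 h, and had a 72 h score of 128 (above 72.1%). The other constant region lay 18603 bp away in the gene Misp3 and had the highest 72 h score of the locus, 139. A region inside the neighbour Palm3, from 84026028 to 84026256, was missing at 48 h and returned at 72 h with a score of 46, above 20.6% of the peaks.

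Ifngr1, the ligand-binding chain of the interferon gamma receptor, lost the largest number of regions of the 9 genes, while the share of naive regions lost was larger at Il10ra. It lies on chromosome 10 from 19591949 to 19610229 and had 10 regions in naive cells, 2 at 48 h and 3 at 72 h. At 48 h, 8 were lost and 0 gained, and at 72 h, 7 were lost and 0 gained. Of all 17276 genes with a region, 1.49% had a balance of gained minus lost regions this low or lower at 72 h and 2.10% at 48 h. Among the 346 genes with as many naive regions, 17.3% lost at least as many at 72 h and 13.9% at 48 h. Bases under peaks came to 4400 bp in naive cells, 1063 bp at 48 h and 1113 bp at 72 h, while the whole lists covered 19.83, 12.64 and 17.68 Mb.

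The lost regions of Ifngr1 included wide ones. A naive-only region from 19577983 to 19578904, 13045 bp before the gene, was 922 bp wide and ranked 34 by width among the 23435 naive-only regions. Of the 3580 regions at least that wide in the naive list, 0.95% were naive only. Beyond the gene, naive-only regions of 435 bp (19613039 to 19613473) and 563 bp (19613597 to 19614159) lay side by side, where 13.0% and 7.05% of naive regions at least as wide were naive only. These were the only naive-only regions of the members at least 400 bp wide, a limit set after the values were seen. Over all members, 3 of 20 naive regions of that width were naive only (15%), against 14.8% over the genome.

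The start of Ifngr1 had a peak in each list. Its region, from 19591460 to 19592459, was 1000 bp wide in naive cells, 776 bp at 48 h and 727 bp at 72 h, and its scores were the highest of all member regions in both lists, 212 at 48 h (above 95.6%) and 312 at 72 h (above 97.2%). A region inside the gene, from 19598068 to 19598441, was also in all 3 lists, with scores of 64 and 56. The remaining region at 72 h, from 19577630 to 19577816, was missing at 48 h and had a score of 46.

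Ifngr2, the signalling partner of IFNGR1, lies on chromosome 16 from 91547059 to 91564007 and had 7 regions in naive cells, 4 at 48 h and 4 at 72 h. At 48 h, 5 were lost and 2 gained, and at 72 h, 4 were lost and 1 gained. Among the 934 genes with as many naive regions, 22.4% lost at least as many at 48 h and 35.2% at 72 h. Leaving out the peaks under each list's median width gave 2 gained and 1 lost at 72 h, while the widest 40624 peaks of each list gave 1 gained and 2 lost. Its start region, from 91546838 to 91547477, was 269 bp wide in naive cells, 529 bp at 48 h (in 2 peaks) and 637 bp at 72 h, with scores of 84 at 48 h (above 60.6%) and 205 at 72 h (above 87.8%), the highest of the locus. It was thus wider in both cultured lists than in the naive list, the reverse of the order at the Ifngr1 start. Just before it, a region from 91546463 to 91546713 was gained at 48 h and 72 h and scored 84 in the 72 h list (above 54.9%), and a region from 91545523 to 91546258 was 636 bp wide in naive cells, absent at 48 h and 335 bp wide at 72 h. The lost regions inside the gene, from 91549044 to 91549185 and from 91553738 to 91554112, were 142 and 375 bp wide.

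Set side by side at 72 h, 5 of the 9 receptor genes had more lost than gained regions (Il10ra, Il17ra, Il27ra, Ifngr1 and Ifngr2), 1 had more gained (Il4ra) and 3 had equal numbers. Over all genes with a region the shares were 39.8%, 36.6% and 23.6%. At 48 h, 6 had more lost, with Il10rb joining the first group, 0 more gained and 3 equal numbers, against 54.6%, 20.3% and 25.1% of all genes. At 72 h against 48 h, 5 genes gained more than they lost, 0 lost more and 4 were equal, against 55.9%, 11.5% and 32.6% of all genes. No gained region was found at 72 h at 4 of the 9 genes, Il10ra, Il17ra, Il27ra and Ifngr1, where 31.7% of all genes had none. Bases under peaks at 72 h exceeded those of naive cells at Il4ra (3452 bp at 72 h, 2920 bp in naive cells) and Il10rb (2507 bp at 72 h, 2272 bp in naive cells) and were fewer at the other 7 genes.

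**Figure D5:**
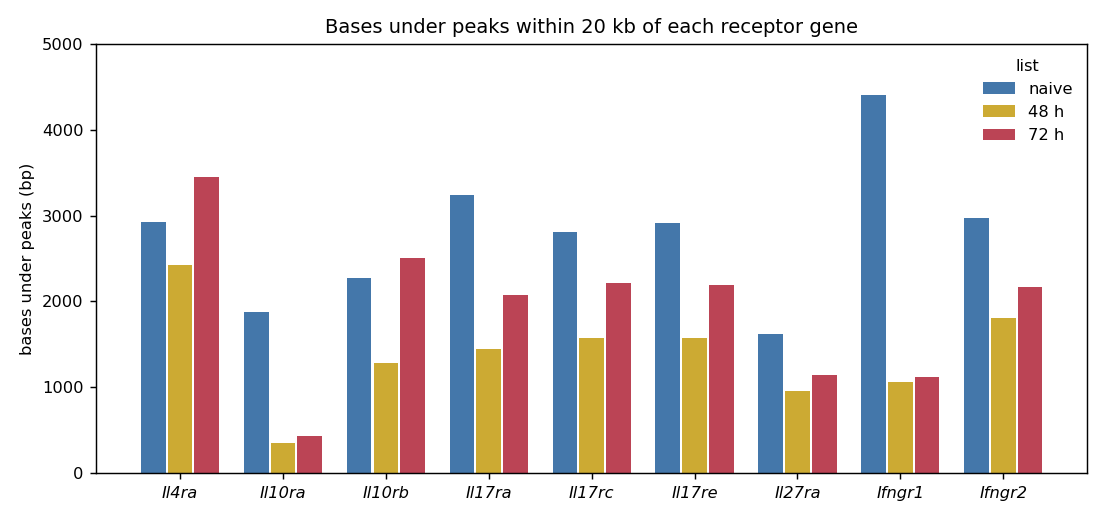
Bases under peaks within 20 kb of each receptor gene in the naive, 48 h and 72 h lists. Ifngr1 shows 4400, 1063 and 1113 bp and Il4ra shows 2920, 2426 and 3452 bp.

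The other genes of these pathways, a list of 41 ligands, partner chains, kinases, adaptors, transcription factors and brakes, held 334 regions in windows of the same size. The list is not fully apart from the receptors, since the window of Ifnar2 holds regions already counted at Il10rb, among them the 2 inside Ifnar2. At 72 h, 97 of their regions were gained (42.2% of those at 72 h, against 49.2% over all regions). Of those in naive cells, 91 were lost (40.6%, against 49.2%). At 48 h, 57 were gained (34.1%, against 38.8%) and 114 lost (50.9%, against 55.9%). By gene, 14 of the 41 had more gained than lost regions at 72 h and 18 more lost, against 36.6% and 39.8% of all genes with a region. At 48 h the numbers were 6 and 29, against 20.3% and 54.6%.

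Among the cytokines that these receptors bind, 28 of 39 regions at 72 h were gained around the 10 ligand genes, against 49.2% over all regions, and 6 of 17 naive regions were lost, against 49.2%. At 48 h, 15 of 25 were gained, against 38.8% over all regions, and 7 of 17 lost, against 55.9%. Most of that came from Il17a, with 8 gained and 0 lost at 72 h, Il10, with 6 and 0, and Il17f, with 5 and 0. Il13 had 3 gained and 0 lost. Il27, a subunit of the cytokine that binds IL-27RA, had 1 gained and 1 lost at 72 h and 0 gained and 2 lost at 48 h. The difference between ligands and receptors was not tested.

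At 72 h the partner chains had 16 of 50 regions gained and 25 of 59 naive regions lost, beside 49.2% for both over all regions. Il17rb, a receptor chain for IL-25, had 0 gained and 5 lost at 72 h and 0 gained and 6 lost at 48 h, and Il17rd had 3 gained and 1 lost at 72 h. The type I interferon receptor gene Ifnar1, on the same chromosome as Il10rb and Ifngr2, had 1 gained and 3 lost at both times, and Il22ra1 had 2 gained and 0 lost at 72 h. The kinases and adaptors had 21 of 55 gained and 22 of 56 lost at 72 h, with the IL-17 receptor adaptor gene Traf3ip2 at 0 gained and 2 lost. The kinase gene Jak1 had 11 gained and 11 lost at 72 h and 9 gained and 13 lost at 48 h. Jak3 had 2 gained and 2 lost at 72 h and 1 gained and 5 lost at 48 h. Among the transcription factors, with 20 of 51 gained and 28 of 59 lost at 72 h, Cebpb had 0 gained and 3 lost, Nfkbiz, an IL-17 response factor, 3 gained and 6 lost, Stat4 8 gained and 10 lost and Stat3 5 gained and 3 lost. The brakes had 12 of 35 gained and 10 of 33 lost. Cish, a STAT-induced inhibitor, had 6 gained and 0 lost, and Socs1, which restrains interferon gamma and IL-4 signalling, had 1 gained and 3 lost.

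Genes with a pattern like that of a receptor were sought by the sum of absolute differences of region counts over the 7 combinations of lists, among genes sharing no region with it. Dse was the only gene with the same 7 counts as Il10ra, Dcaf17 and Fgfr1 matched Ifngr1 in all 7, and B4galnt1 and Jak3 matched Il10rb. Il17rc and Il27ra were each matched in full by 24 genes and Il17re by 6, so those patterns are common ones. For Il4ra, Il17ra and Ifngr2 no gene matched in full, and the smallest sums were 2, reached by Bhmg1, Hdac5 and Mgrn1 among 5 genes, 1, reached by Arid3c, Cacnb1 and Dctn3 among 8, and 1, reached by Anapc16, Dcaf5 and Fmod among 14.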

How the data were processed

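Chromatin accessibility was measured by ATAC-seq (Tn5 transposase cuts open DNA) in naive, 48 h and 72 h cells. Tools listed in the submitters' processing notes are MACS2 2.2.6, Bowtie2 2.3.4.1, deepTools and SAMtools 1.9, with mm10 and GRCm38 (1 assembly under 2 names) as build. Not given in the sources used here are the calling threshold, filters, duplicate removal, any shift for the Tn5 cut and pooling of replicates. The deposited lists hold chromosome, start, end and peak name, and the 48 h and 72 h lists also the authors' whole-number score, of unstated scale, from 30 upward. Peak names hold "WT" and "Ddx5". The naive list has 1 empty line, which was skipped. Reads and signal were not used here, so depth is unknown.

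Starts were read as counting from 0 and are printed 1-based. Regions were merged and matched to 21900 RefSeq protein-coding genes (all 9 members matched) with Python 3.11.15, NumPy 2.4.6 and SciPy 1.17.1. Merging was tested on simulated lists and gave the right lists for 2000 of 2000 regions. The simulated regions lay far apart and the peaks of each always overlapped, so close or chained peaks were not tried. Shares have exact Clopper-Pearson 95% intervals. Groups follow the sample titles. The members and gene lists were chosen with earlier results of these data known. The text names all members, of each pathway group up to 4 genes with the most unequal gains and losses, overlapping neighbours, and the likest genes. Regions named are those over a gene end, the highest in 72 h score and others picked after their values were seen. Alternatives were flanks of 0, 10 and 50 kb, wide peaks, equal numbers of peaks, a score limit, merging across 100 bp and overlap of 50%.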

Additional observations from a re-analysis of the deposited data

How the results depend on the processing

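The shares of gained and lost receptor regions in the 3 comparisons were recomputed under 8 other settings, and 44 of 48 values stayed inside the 95% interval of the reported share. The 4 that did not came from the gene bodies without flanks. There, 0% of the 48 h regions and 10% of the 72 h regions were gained against naive cells, and 26.1% and 21.7% of the naive regions were lost at 48 h and 72 h. In the flanks, 76.2% and 61.9% of the naive regions were lost at 48 h and 72 h. The reported shares thus depend on counting the flanks. The setting without them also holds fewer regions by its construction. The gained share at the receptors was below that over the genome under each of the 8 settings at 72 h (10% to 33.3%, against 43.3 to 52.2%) and at 48 h (0 to 29.4%, against 33.6 to 44.0%), both against naive cells. The balance of gained minus lost regions was recomputed for each gene and for the 9 together, and 2 of 240 values changed sign, both at 72 h against naive. Il4ra had -2 with flanks of 50 kb and Ifngr2 had 1 when peaks under each list's median width were left out, and the cause was not tested. Another 47 of the 240 left the range set by a 95% interval around the reported balance, and 191 stayed in it. A reported balance of 0 cannot change sign by this count. Il4ra at 48 h against naive went from 0 to -5 with flanks of 50 kb and also with low-scoring peaks left out. The balance over the 9 genes at 72 h against naive, -22, ranged from -35 (flanks of 50 kb) to -3 (bodies alone), and was -12 with the widest 40624 peaks of each list and -4 without the narrow peaks. Calling a peak shared only where at least 50% of it was covered gave 15 gained and 36 lost peaks at 72 h, against 9 and 31 regions as reported. No paired analysis was possible because 1 peak list per condition was analysed, so no replicate could be left out either. Each condition's list limits what can be seen, since a region below the authors' threshold is absent from it and depth is unknown.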
